A study of Homo sapiens with 15 samples.

Results

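Long noncoding RNAs were followed through 2 ways of acting on the transcription factor MYC. They were taken as the entries that the deposited tables annotate as lincRNA, antisense, processed transcript, sense intronic or sense overlapping. An entry was kept when its mean level reached 2 CPM (a library's reads on a gene scaled to a fixed total of counted reads) over the 3 libraries of at least 1 of the 5 groups. The small nucleolar RNA host genes named SNHG, GAS5 and ZFAS1 were left out. The rule kept 1002 of the 16109 genes listed, and 390 of these were lincRNA, 418 antisense, 120 processed transcript, 46 sense intronic and 28 sense overlapping. Because the level itself chose the members, an entry that reached 2 CPM in a single group is bound to be high there, and the counts of changed members below describe them and support nothing. Just outside the rule lay RP11-97C16.1 at 1.995 CPM in its highest group, and just inside lay RP11-13N13.2 at 2.007 CPM. GENCODE v29 lists 932 members and types 32 of them as protein coding.

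PC3, a human prostate cancer cell line, was treated for 24 h with 8 µM MYCi975, a small molecule MYC inhibitor given in DMSO. P493-6 is a human B cell line, called a Burkitt lymphoma line in the labels, whose MYC transgene is shut off by tetracycline. It was treated for 24 h with 6 µM MYCi975 or with 0.1 µg/ml tetracycline given in water, and each group held 3 libraries. Controls in both lines received DMSO, so the tetracycline libraries had no control treated with water, and both P493-6 comparisons used the same 3 control libraries. Each cell type is represented by 1 line, and the labels do not say whether the 3 libraries of a group were separate cultures. The p-values therefore reflect library-to-library spread that could be technical.

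Long noncoding RNAs are transcripts without a long reading frame that act, where a role is known, as scaffolds, decoys, hosts of smaller RNAs or by being transcribed beside a neighbour. Many start close to a coding gene on the other strand and share its promoter. MYC binds E-box sequences near start sites with its partner MAX, and it is known to raise some noncoding hosts, such as that of the miR-17 to miR-92a cluster, and to hold down others.

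The libraries held 8162582 to 15926008 counted reads, so that 2 CPM stood for 16.3 to 31.9 reads. MYC transcript was at 4730 ± 54.8 CPM (SD, n = 3) in P493-6 controls, 149 ± 3.75 CPM with tetracycline and 5120 ± 29.4 CPM with MYCi975. In PC3 it was at 304 ± 4.96 CPM in controls and 374 ± 13.6 CPM with MYCi975. MYC protein is not in these files. All 7 B cell markers were listed in P493-6 and none in PC3, while 6 of 7 epithelial markers were listed in PC3, all but KLK3, and summed to 1410 to 1450 CPM in controls against 11.1 to 12.4 CPM in P493-6 controls. EPCAM was close in both lines, at 13.5 to 15.9 CPM in the PC3 controls and 10.7 to 11.9 CPM in the P493-6 controls. The tables list only genes above 1 CPM in at least 2 of 6 libraries, and an entry that failed this in a table is called not listed.

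Members took between 1.55% and 2.24% of the reads of a library. The share was 1.64% to 1.80% in PC3 controls and 2.01% to 2.21% after MYCi975. In P493-6 it was 1.55% to 1.59% in controls, 1.599% to 1.78% with MYCi975 and 2.20% to 2.24% with tetracycline. The PC3 groups did not overlap, and neither did the P493-6 controls and either treated group. The gap was narrow with MYCi975, between 1.594% in the highest control and 1.599% in the lowest treated library. Most of these reads fell on MALAT1, a nuclear speckle RNA, and on 3 short structured RNAs: RN7SL1 of the signal recognition particle, RMRP of the ribonuclease MRP and RPPH1 of the ribonuclease P. The other members took 0.55% to 0.69% of a library's reads.

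**Figure D1:**
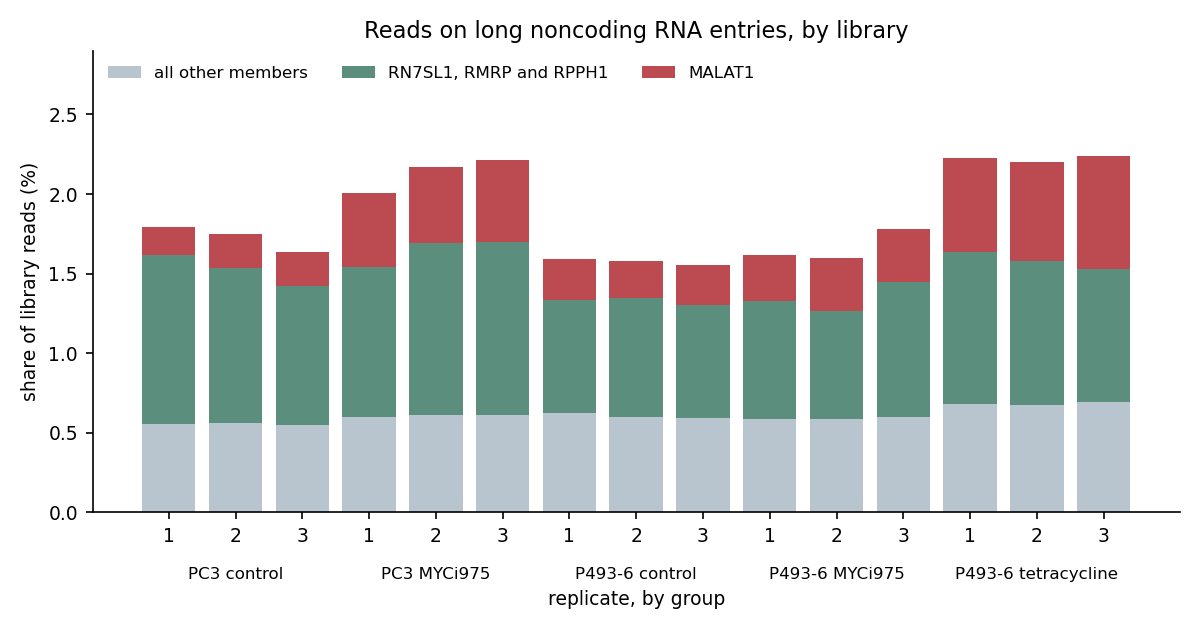
Stacked bars give the share of each library's reads (percent, y axis) on MALAT1, on RN7SL1, RMRP and RPPH1 together, and on all other members, for the 15 libraries by group and replicate. MALAT1 grows from 0.175% to 0.220% in PC3 controls to 0.464% to 0.515% with MYCi975, and reaches 0.589% to 0.706% in P493-6 with tetracycline.

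Per kilobase of exon (union of exons in GENCODE v29, which holds no RN7SL1 entry under the same identifier), RMRP stood highest in all 5 groups, from 10100 CPM per kilobase in PC3 controls to 16600 in P493-6 with tetracycline. RPPH1 followed in all 5 groups, with 2310 to 2970 CPM per kilobase. BCYRN1, the short brain cytoplasmic RNA BC200, was left out of this order. GENCODE gives it 200 bases of exon, while its entry in the deposited tables spans far more (coordinates below), so the length may not match the counts. With BCYRN1 set aside, MALAT1 came next in all 5 groups by these lengths, from 230 CPM per kilobase in PC3 controls to 723 in P493-6 with tetracycline. Of the 932 members listed in GENCODE, 833 have the same chromosome, start and end there. These libraries were made by exon capture, so a level also depends on the probes for each RNA.

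P493-6 had more groups than PC3 through which a member could reach 2 CPM, so counts by line lean to P493-6 through the rule itself. Of the members, 202 reached 2 CPM in PC3 only, 452 in P493-6 only and 348 in both lines, and 233 did so in all 5 groups. The highest group mean was below 5 CPM for 551 members and at least 100 CPM for 16. By group, 475 members reached 2 CPM in PC3 controls and 505 with MYCi975, against 560 in P493-6 controls, 520 with MYCi975 and 670 with tetracycline.

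In PC3, MYCi975 was tested on the 690 members listed there by limma on log2(CPM + 1) over all 13751 genes, and a call means a Benjamini-Hochberg adjusted p below 0.05. Of these, 178 rose (25.8%, against 29.0% of all genes) and 95 fell (13.8%, against 30.1% of all genes). The median log2 change was 0.06 over members and -0.00 over all genes. Among the 430 members at 2 CPM or more in both groups, 113 rose and 68 fell (all genes at that level were not counted). The treated libraries all lay above the controls for 182 of the 690 members, against 30.2% of all genes. They lay below the controls for 115 of the 690, against 31.7% of all genes. DESeq2 on the recovered reads called 63 falls in place of 95.

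MALAT1 was at 1750, 2196 and 2139 CPM in the PC3 control libraries and at 4639, 4818 and 5153 CPM with MYCi975. All treated libraries lay above all controls, and the log2 change was 1.27 ± 0.11 (SE, n = 3 against 3, limma adjusted p = 0.00059). NEAT1, the RNA core of nuclear paraspeckles, is encoded beside MALAT1 on chromosome 11. Its levels were 51.4, 73.3 and 69.7 CPM before treatment and 133, 159 and 164 CPM after it, again without overlap (log2 change 1.23 ± 0.18, limma adjusted p = 0.00424).

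The steepest rise in PC3 was that of HIF1A-AS3, listed in the tables as HIF1A-AS2, an antisense transcript over the hypoxia factor gene HIF1A (chromosome 14, 61715558 to 61751097, minus strand, hg38). It was at 2.64, 2.14 and 2.58 CPM in controls and at 14.2, 17.6 and 13.6 CPM with MYCi975, a log2 change of 2.22 ± 0.13 (limma adjusted p = 3.93e-29). HIF1A itself rose less, from 235 to 306 CPM (log2 change 0.38). DLGAP1-AS2, antisense to a synaptic scaffold gene, went from 2.87 ± 0.80 CPM (SD, n = 3) to 15.7 ± 2.12 CPM (log2 change 2.12 ± 0.13, limma adjusted p = 6.66e-26). SOCS2-AS1 lies opposite SOCS2, a suppressor of cytokine signalling. It went from 6.04 ± 0.06 to 18.1 ± 1.18 CPM (log2 change 1.44), and SOCS2 from 41.6 to 74.1 CPM (log2 change 0.82). Further rises were LINC01444 (log2 change 1.24), LINC00963 (1.22) and LNCAROD (1.11), the last an RNA known for head and neck tumours.

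LINC00261, an RNA beside the endoderm factor gene FOXA2, fell furthest among members of at least 5 CPM. It was at 35.2, 34.5 and 30.4 CPM in PC3 controls and at 7.22, 8.29 and 9.68 CPM with MYCi975 (log2 change -1.88 ± 0.09, limma adjusted p = 4.3e-34), so each treated library held less than any control. SSTR5-AS1, which starts head to head with a somatostatin receptor gene, went from 24.4 ± 1.75 to 10.0 ± 1.25 CPM (log2 change -1.21), and the clone-named RP11-479G22.8 fell by 1.05 on the log2 scale.

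Transcripts of the HOXA cluster fell together with their coding neighbours. HOXA10-AS overlaps HOXA9 and HOXA10, developmental homeobox genes, and went from 8.96 ± 1.48 to 2.73 ± 0.32 CPM (log2 change -1.41, limma adjusted p = 9.05e-16). HOXA9 went from 45.4 to 21.6 CPM and HOXA10 from 30.5 to 9.44 CPM. HOXA11-AS, which starts 705 bases from HOXA11, went from 5.30 ± 0.84 to 2.20 ± 0.49 CPM (log2 change -0.98), and HOXA11 from 31.3 to 10.5 CPM. Of the 5 members of the HOX and developmental list listed in PC3, these 2 fell, the other 3 were not called, and the median log2 change was -0.13 against -0.00 over all genes. HOTAIRM1 (log2 change -0.13), HOXD-AS2 (0.13) and FOXD2-AS1 (-0.03) were not called. TMPO-AS1 starts head to head with TMPO, a nuclear lamina gene, and fell with it: the log2 changes were -1.03 and -0.95.

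In P493-6, 773 members were tested with MYCi975. Of these, 39 rose (5.05%, against 10.6% of all genes) and 69 fell (8.93%, against 18.0% of all genes). The median log2 change was -0.08 over members and -0.04 over all genes. After TMM scaling, a correction for library composition, the counts were 51 and 53, so the balance of rises and falls depends on the scaling. Without the first control library 43 fell, without the second control library 26 rose, and DESeq2 called 24 rises and 29 falls. Among the 481 members at 2 CPM or more in both groups, 29 rose and 50 fell (all genes at that level were not counted). All treated libraries exceeded the controls for 75 of the 773 members, against 15.2% of all genes. They lay below the controls for 139 of the 773, against 24.8% of all genes.

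BCYRN1 fell furthest among members of at least 5 CPM. The entry (chromosome 2, 47331060 to 47344517, plus strand, hg38) ends just before EPCAM on the same strand, and BC200 has near-identical copies elsewhere, so the origin of its reads is uncertain. EPCAM was at 11.2 ± 0.607 CPM in P493-6 controls, 13.8 ± 0.517 CPM with MYCi975 and 1.84 ± 0.939 CPM with tetracycline, and its part in the reads of this entry was not tested. BCYRN1 was at 75.2, 77.6 and 89.1 CPM in P493-6 controls, at 34.5, 40.2 and 39.8 CPM with MYCi975 and at 13.2, 11.4 and 10.7 CPM with tetracycline. These 3 groups did not overlap, and the log2 changes against control were -1.06 ± 0.07 with MYCi975 (limma adjusted p = 2.76e-16) and -2.68 ± 0.09 with tetracycline (limma adjusted p = 3.27e-27). In PC3 it went from 102 ± 9.46 to 69.7 ± 5.2 CPM (log2 change -0.54). The change in PC3 was the smaller one, by 0.52 ± 0.11 on the log2 scale (limma, interaction of line and treatment over 12 libraries, adjusted p = 0.000537).

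EMSLR, named for stabilising the mRNA of the cell cycle factor E2F1 and listed under a clone name (chromosome 7, 101308346 to 101310985, plus strand), fell under every treatment. It was at 18.7, 16.8 and 18.4 CPM in P493-6 controls, at 11.8, 11.6 and 12.9 CPM with MYCi975 and at 0.115, 0.368 and 0.202 CPM with tetracycline. The tetracycline libraries held 1, 3 and 2 reads, 6 in all against 578 in controls. This is 1.25% of the control level (95% exact interval 0.458% to 2.74%, which covers counting error only). In PC3 EMSLR went from 20.6 ± 1.40 to 11.7 ± 0.78 CPM (log2 change -0.77, limma adjusted p = 2.54e-12). The difference in response between the lines was not called (-0.23 ± 0.14, limma adjusted p = 0.19).

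Divergent transcripts were among the other P493-6 falls. TAF12-DT, which starts 143 bases from the transcription factor subunit gene TAF12, was at 7.17, 7.70 and 7.37 CPM in controls and at 3.42, 3.75 and 3.10 CPM with MYCi975 (log2 change -0.93 ± 0.15, limma adjusted p = 3.35e-06). TAF12 was at 18.0 CPM in controls and 19.6 CPM with MYCi975, which was not called. TBC1D22A-DT starts 54 bases from TBC1D22A and moved against it: the log2 changes were -0.58 and 0.43.

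MIR663AHG rose most among members of at least 5 CPM, from 5.65 ± 0.56 to 10.9 ± 1.02 CPM (log2 change 0.84 ± 0.13, limma adjusted p = 1.93e-06). Its level with tetracycline was 10.3 ± 1.77 CPM. FIRRE, an X-linked repeat RNA that organises nuclear contacts, was at 153, 153 and 161 CPM in controls and at 213, 203 and 199.5 CPM with MYCi975 (log2 change 0.40 ± 0.05, limma adjusted p = 1.92e-09). LINC00426 rose by 0.59 and MALAT1 by 0.37 on the log2 scale. NEAT1 was at 40.6 ± 6.12 CPM in controls and 41.7 ± 3.32 CPM with MYCi975 and was not called. For both MALAT1 (0.90 ± 0.13, limma adjusted p = 0.000711) and NEAT1 (1.18 ± 0.23, limma adjusted p = 0.00328), the log2 change was larger in PC3 than in P493-6 by the interaction test.

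With tetracycline, 846 members were tested. Of these, 373 rose (44.1%, against 36.2% of all genes) and 223 fell (26.4%, against 41.9% of all genes). The median log2 change was 0.21 over members and -0.05 over all genes. For 222 members only the tetracycline mean reached 2 CPM and for 112 only the control mean, and these had to lean in those directions. Among the 448 members at 2 CPM or more in both groups, 171 rose and 115 fell (all genes at that level were not counted). All treated libraries exceeded the controls for 368 of the 846 members, against 36.3% of all genes. They lay below the controls for 229 of the 846, against 42.1% of all genes. At least 2-fold changes were reached by 158 rises (18.7% of members, 13.5% of all genes) and 89 falls (10.5% of members, 16.2% of all genes), and these include members that passed 2 CPM only through the group where they are high. With members chosen by their mean over all libraries in place of the highest group, 191 rose.

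DANCR, a small nucleolar RNA host that holds back differentiation, was at 166, 158 and 164 CPM in P493-6 controls and at 27.2, 23.9 and 25.0 CPM with tetracycline (log2 change -2.64 ± 0.06, limma adjusted p = 8.23e-32). With MYCi975 it was at 146, 136 and 134 CPM, below every control (log2 change -0.23 ± 0.05, limma adjusted p = 0.000177). In PC3 it was at 45.9 ± 3.25 and 47.6 ± 2.27 CPM and was not called. VPS9D1-AS1, also known as MYU for its induction by MYC, was at 29.5, 32.5 and 29.4 CPM in P493-6 controls and at 2.76, 1.23 and 1.82 CPM with tetracycline (log2 change -3.45 ± 0.15, limma adjusted p = 1.28e-22). VPS9D1, the gene it overlaps on the other strand, went the other way, from 1.24 to 3.90 CPM (log2 change 1.15). With MYCi975 in PC3 the log2 changes were -0.73 for VPS9D1-AS1 and 0.80 for VPS9D1. In P493-6 MYCi975 left VPS9D1-AS1 uncalled, at 27.7 ± 2.24 CPM against 30.4 ± 1.79 CPM in controls.

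DDN-AS1, listed as RP11-386G11.5, went from 17.5 ± 1.03 to 1.83 ± 0.31 CPM (log2 change -2.71) together with DDN, which starts 942 bases away and went from 66.3 to 1.61 CPM (log2 change -4.69). MYCi975 moved DDN-AS1 the other way, to 22.3 ± 0.62 CPM (log2 change 0.33, limma adjusted p = 0.00462), and DDN to 56.0 CPM (log2 change -0.24). SNHG26, listed under the clone name AC005682.5 and so kept by the rule, went from 24.4 ± 1.27 to 4.61 ± 0.39 CPM (log2 change -2.18). KTN1-AS1 fell by 2.21 and C10orf95-AS1 by 2.03 on the log2 scale.

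Rises with tetracycline were led by an interval of chromosome 1. BCAN-AS2 (156646507 to 156661424, minus strand, hg38) was at 0.679, 0.655 and 0.921 CPM in P493-6 controls, at 3.08, 2.76 and 2.79 CPM with MYCi975 and at 15.8, 14.1 and 19.3 CPM with tetracycline. It rose in all 3 comparisons, by 1.15 ± 0.20 with MYCi975 and by 3.31 ± 0.17 with tetracycline in P493-6, and by 1.05 ± 0.19 in PC3 (log2 scale, limma). The neighbouring entry RP11-284F21.10 (156641666 to 156644887, same strand) likewise rose in all 3, and a further entry, RP11-284F21.9 (156637783 to 156641004, same strand), was at 0.293 ± 0.183 CPM in controls and 2.88 ± 1.04 CPM with tetracycline. The intermediate filament gene NES (156668763 to 156677397) lies upstream on the same strand. It and RP11-284F21.9 were picked after their values were seen. NES was at 6.91 ± 1.16, 9.05 ± 0.75 and 64.1 ± 3.23 CPM in the same 3 groups. In PC3, where BCAN-AS2 went from 0.323 ± 0.175 to 1.72 ± 0.25 CPM, the NES libraries ranged from 190.4 to 199 CPM before and 131 to 135 CPM after treatment.

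HCP5, an RNA of the HLA region, was at 4.75, 4.67 and 5.12 CPM in P493-6 controls and at 38.9, 38.7 and 40.5 CPM with tetracycline (log2 change 2.79 ± 0.11, limma adjusted p = 1.42e-24). With MYCi975 it was at 6.72 ± 0.62 CPM (log2 change 0.40, limma adjusted p = 0.0321). That call was lost when any of 4 libraries was left out (the first or second control, adjusted p = 0.0714 and 0.0867, or the first or the third treated library, 0.138 and 0.0643) and under DESeq2 (0.0754). LINC01781 went from 6.70 ± 0.42 to 45.3 ± 3.84 CPM with tetracycline (log2 change 2.58). AFTPH-DT, which starts 212 bases from the trafficking gene AFTPH, rose with it, by 2.62 against 0.98 on the log2 scale. The clone-named CTD-2306M10.1 and AF127936.5 rose by 2.92 and 2.54.

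**Figure D2:**
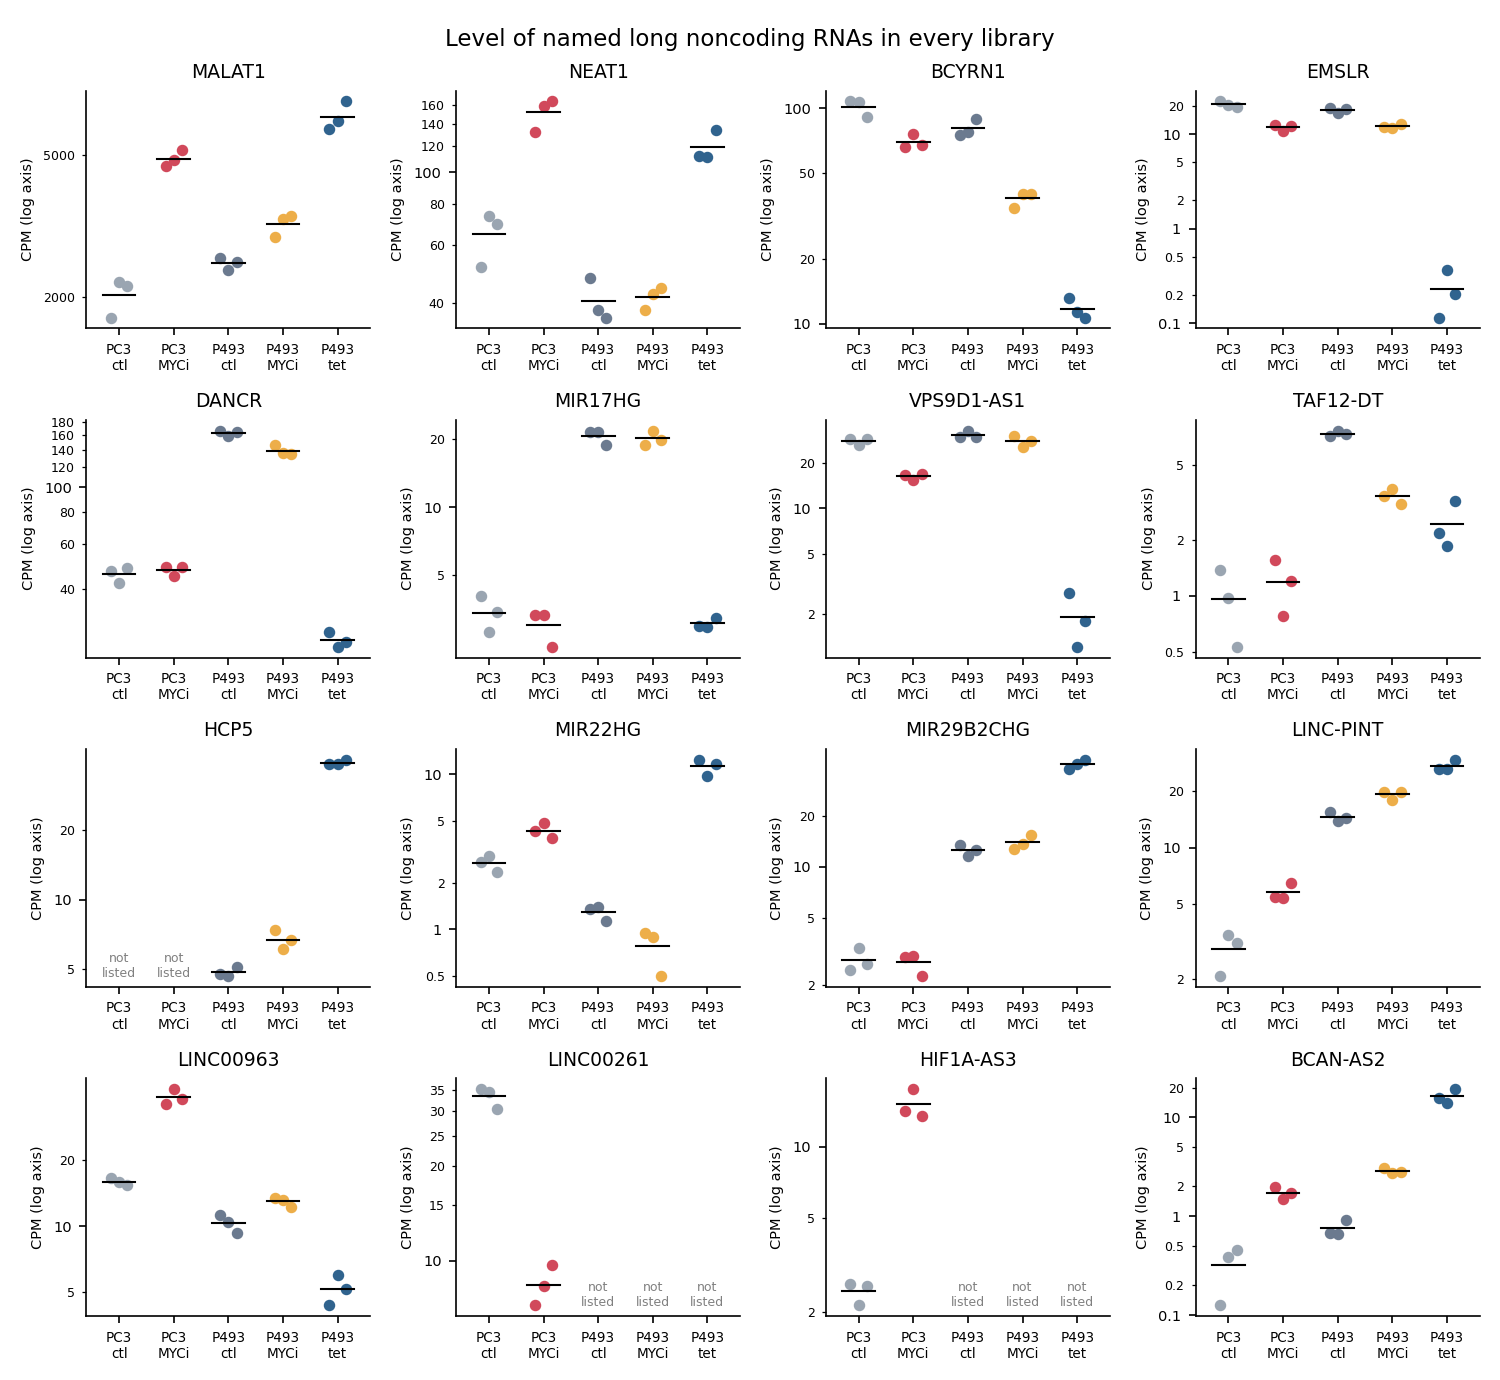
Points are CPM in single libraries (log axis) for 16 members in the 5 groups, and bars are group means of 3 libraries. EMSLR, DANCR, MIR17HG and VPS9D1-AS1 drop with tetracycline, HCP5, MIR22HG and BCAN-AS2 climb, and LINC00963 goes up with MYCi975 in PC3 and down with tetracycline in P493-6.

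**Figure D3:**
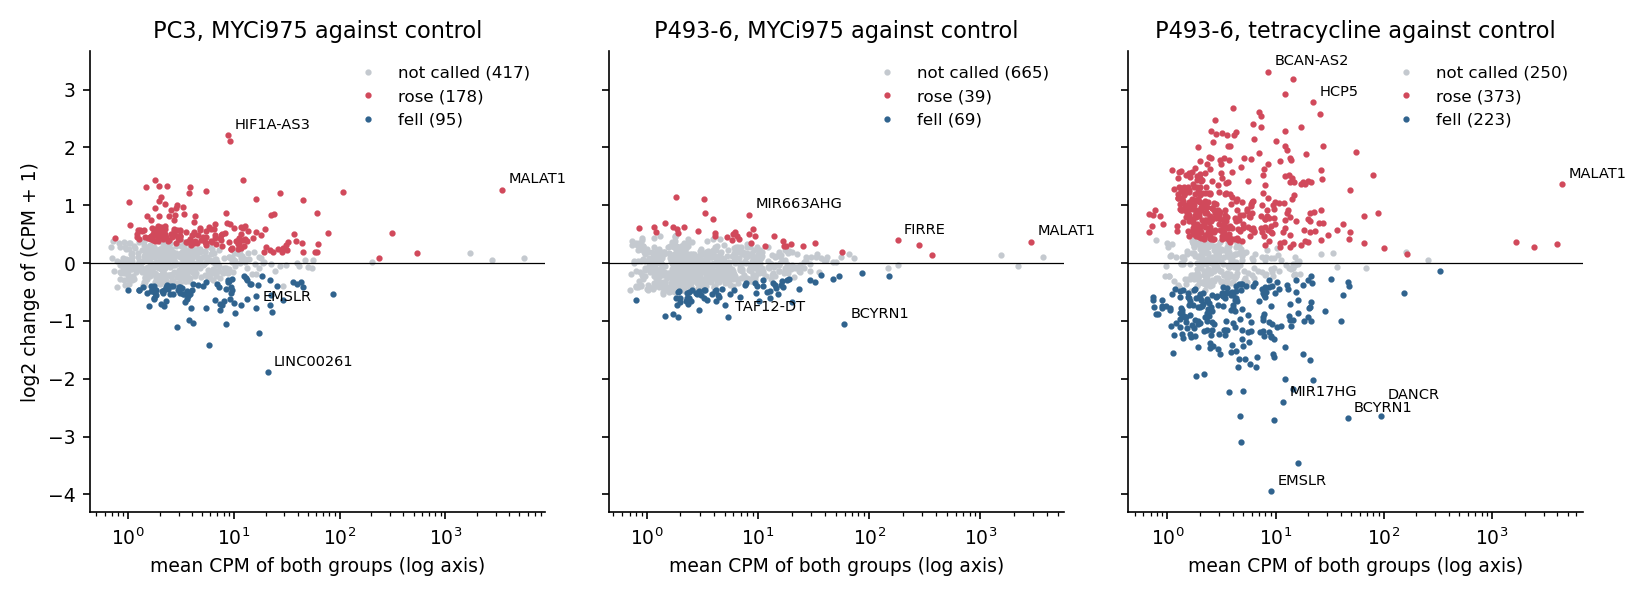
Each point is a member, with its mean CPM of both groups (log axis) against its log2 change of (CPM + 1), for the PC3 comparison and both P493-6 comparisons. Called members are coloured (178 up and 95 down, 39 up and 69 down, 373 up and 223 down), and the spread is widest with tetracycline.

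The direct comparison of the P493-6 treatments used all 9 libraries of that line. Of 768 members, 180 were higher with MYCi975 (23.4%, against 42.3% of all genes) and 311 lower (40.5%, against 33.9% of all genes). The median difference was -0.18 over members and 0.08 over all genes. Choosing members by their mean over all libraries left 192 lower. The widest differences were those of EMSLR (3.42), VPS9D1-AS1 (3.32) and DDN-AS1 (3.05) above, and of MIR22HG (-2.79) and CTD-2306M10.1 (-2.55) below, in log2 units of MYCi975 minus tetracycline. LINC00963 was at 10.3 ± 0.97 CPM in controls, 13.0 ± 0.63 CPM with MYCi975 and 5.17 ± 0.82 CPM with tetracycline, and the difference between the treatments was 1.19 ± 0.13 (limma adjusted p = 2.12e-11). MIR663AHG was at 10.9 ± 1.02 and 10.3 ± 1.77 CPM, a difference of 0.08 ± 0.14 that was not called.

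Between the lines, 522 members could be tested for a difference in the response to MYCi975. The dose was 8 µM in PC3 and 6 µM in P493-6. The change was higher in PC3 for 76 members (14.6%, against 18.1% of all genes) and lower for 23 (4.41%, against 18.2% of all genes). Among these 522 members, 127 rose in PC3 and 25 in P493-6, and 17 rose in both, which is 13.4% of the former and 68.0% of the latter. Over all 11240 genes in both tables these shares were 22.0% and 58.8%. The falls numbered 61 and 57, and 16 fell in both, 26.2% and 28.1%, against 41.8% and 67.5% over all genes. LINC-PINT, a p53-induced RNA, rose in both: from 2.87 ± 0.71 to 5.78 ± 0.63 CPM in PC3 (log2 change 0.82) and from 14.6 ± 0.83 to 19.2 ± 1.01 CPM in P493-6 (log2 change 0.38). NORAD, which sequesters PUMILIO proteins, rose by 0.17 in PC3 and 0.14 in P493-6 and fell by 0.13 with tetracycline. MAP4K3-DT rose by 0.83 in PC3 and 0.50 in P493-6, and the P493-6 call was lost without the third control library (adjusted p = 0.124) or the third treated library (0.0629).

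ATP2B1-AS1, GAS6-AS1 and TUG1 were called in opposite directions in the lines, 0.575% of the 522 members against 3.01% of all genes. ATP2B1-AS1, which starts 341 bases from a calcium pump gene, was at 0.754, 0.844 and 0.987 CPM in PC3 controls and 1.55, 1.91 and 1.20 CPM with MYCi975, but at 5.24, 4.26 and 3.89 CPM in P493-6 controls and 2.05, 2.76 and 2.70 CPM with MYCi975. Neither pair of groups overlapped. Its neighbour ATP2B1 moved the same ways, by 0.23 in PC3 and -0.42 in P493-6 on the log2 scale. GAS6-AS1 had log2 changes of 0.26 in PC3 and -0.43 in P493-6, and TUG1 of 0.20 and -0.17. The P493-6 call of TUG1 was lost with TMM scaling (adjusted p = 0.0683), under edgeR's quasi-likelihood test (0.0622) and DESeq2 (0.166), and without the first control (0.177) or the second treated library (0.0769). PC3 MYCi975 and P493-6 tetracycline, which share no libraries, had 535 members in common. Of these, 133 rose in PC3 and 176 with tetracycline, and 63 rose in both (47.4% and 35.8%, against 49.1% and 42.9% over all genes). The falls numbered 62 and 175, and 30 fell in both (48.4% and 17.1%, against 67.1% and 45.6% over all genes). A further 50 went opposite ways, 9.35% of these members against 15.1% of all genes.

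Several members host microRNAs, short RNAs cut from a longer transcript that pair through their seed with target messages. Among members, 32 held at least 1 of 46 RefSeq hairpins on their own strand. The mature RNAs were not measured, since exon capture of long RNA reports only the host. MIR17HG (chromosome 13, 91347820 to 91354579, plus strand, hg38) carries the miR-17 to miR-92a cluster, the textbook MYC-induced microRNAs. It was at 21.5, 21.5 and 18.8 CPM in P493-6 controls, at 18.9, 21.9 and 19.9 CPM with MYCi975 and at 2.98, 2.94 and 3.23 CPM with tetracycline. The tetracycline libraries lay far below the rest (log2 change -2.41 ± 0.13, limma adjusted p = 1.95e-19), and MYCi975 was not called (-0.03 ± 0.09, limma adjusted p = 0.864). In PC3 the level was 3.41 ± 0.61 CPM in controls and 3.02 ± 0.53 CPM with MYCi975. The main products of this host are printed to show that its 6 hairpins give 4 seeds. They are the RefSeq mature sequences, 5′ to 3′, with the seed at bases 2 to 8 in capitals:
hsa-miR-17-5p: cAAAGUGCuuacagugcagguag
hsa-miR-20a-5p: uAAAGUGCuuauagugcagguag
hsa-miR-18a-5p: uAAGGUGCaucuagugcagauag
hsa-miR-19a-3p: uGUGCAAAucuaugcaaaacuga
hsa-miR-19b-3p: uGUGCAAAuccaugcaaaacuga
hsa-miR-92a-3p: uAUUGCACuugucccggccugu

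Some hosts known to be repressed by MYC went up with tetracycline. MIR29B2CHG, which carries miR-29b and miR-29c, was at 13.5, 11.6 and 12.6 CPM in P493-6 controls and at 37.8, 40.4 and 43.1 CPM with tetracycline (log2 change 1.61 ± 0.09, limma adjusted p = 7.37e-19). MIR22HG, the host of miR-22, went from 1.29 ± 0.15 to 11.2 ± 1.40 CPM (log2 change 2.41 ± 0.17, limma adjusted p = 1.65e-16). DLEU2 carries miR-15a and miR-16 and went from 18.1 ± 1.36 to 34.8 ± 1.99 CPM (log2 change 0.91). With MYCi975 in P493-6 the log2 changes were 0.14 for MIR29B2CHG, -0.38 for MIR22HG and -0.17 for DLEU2, and they were not called. In PC3 MIR22HG rose by 0.53 and DLEU2 fell by 0.53 on the log2 scale, and MIR29B2CHG was not called. A lincRNA listed as MIR29A, which holds the miR-29b-1 hairpin and was picked after its values were seen, was at 28.5 ± 3.57 CPM in PC3 controls and 61.6 ± 1.70 CPM with MYCi975 (log2 change 1.09 ± 0.06, limma adjusted p = 2.09e-26). The sequences show the seeds that these hosts share within a pair, written as above:
hsa-miR-29b-3p: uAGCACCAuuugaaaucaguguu
hsa-miR-29c-3p: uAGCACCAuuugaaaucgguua
hsa-miR-15a-5p: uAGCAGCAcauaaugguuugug
hsa-miR-16-5p: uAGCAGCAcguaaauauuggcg

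Over all members holding a hairpin, 13 of 27 rose and 7 fell with tetracycline, near the shares of all members (44.1% and 26.4%). The falls were MIR17HG, DANCR (-2.64), ENTPD1-AS1 (-1.05), an entry listed as RP5-1180C10.2 (-1.0), MIR646HG (-0.77), GABPB1-AS1 (-0.55) and TTC28-AS1 (-0.46). With MYCi975 in P493-6, 3 of these 27 rose and 2 fell (5.05% and 8.93% of members, 10.6% and 18.0% of all genes). In PC3, 9 of 24 rose and 1, DLEU2, fell (25.8% and 13.8% of members, 29.0% and 30.1% of all genes). The P493-6 rises were AC074286.1 (0.63), SNHG20 (0.30) and RP5-1180C10.2 (0.19), and the falls were MIR142HG (-0.54) and DANCR (-0.23). The MIR142HG call was lost without the first control (-0.24, adjusted p = 0.34) or the second treated library (0.0712) and under DESeq2 (0.0552). Members in these sentences outside the rule for named members were picked after their values were seen.

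A hand-made list of named microRNA hosts, which overlaps this set only in part, had other proportions. Of these, 10 of 15 rose and 1, MIR17HG, fell with tetracycline, with a median log2 change of 0.90 against -0.05 over all genes, of which 36.2% rose and 41.9% fell. MIR3142HG, the host of miR-146a, rose by 1.72 and MIR155HG by 1.37, both tied to lymphocyte activation. MIR4435-2HG (-0.28), MIR600HG (-0.07), MIRLET7A1HG (0.25) and MIR181A2HG (0.31) were not called with tetracycline. With MYCi975 in P493-6, 1 of 15 rose, namely MIR663AHG, and the others were not called (median 0.06 against -0.04). In PC3, 4 of 12 rose and 1 fell (median 0.13 against -0.00). Of these rises, MIR4435-2HG (0.28) lost its call without the first treated library (adjusted p = 0.0825) and MIR222HG (0.25) without the first or second control or the third treated library (0.0992, 0.0798 and 0.174) and under DESeq2 (0.0954).

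**Figure D4:**
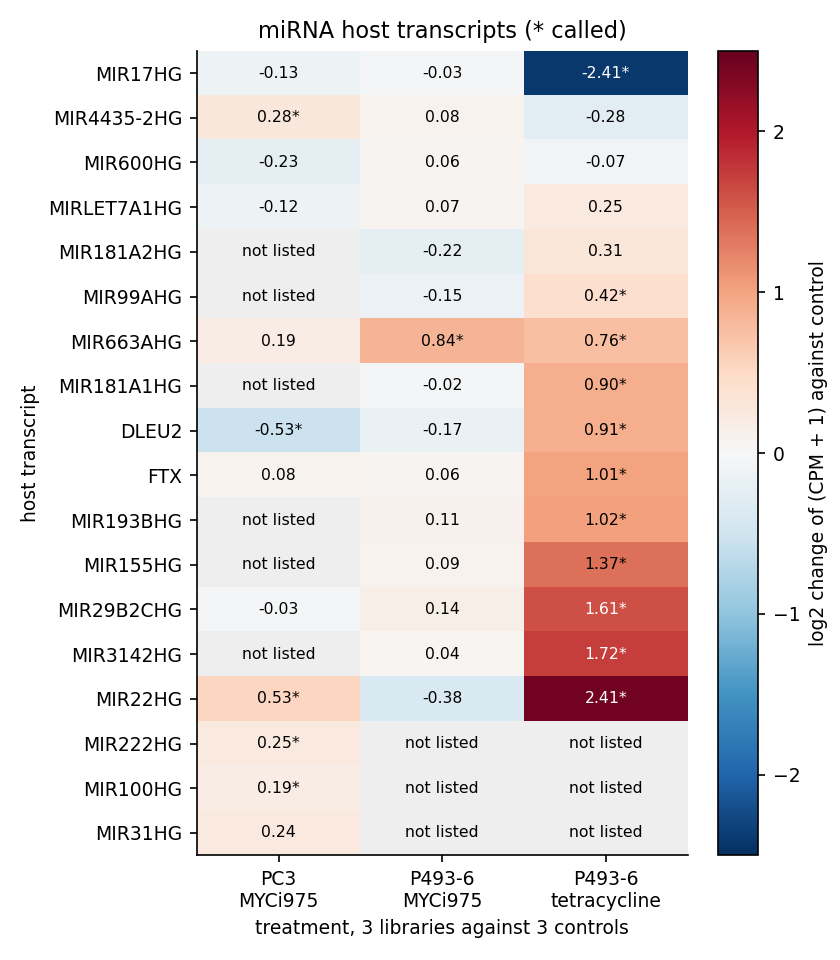
The grid gives the log2 change of (CPM + 1) of 18 microRNA host transcripts (rows) in the 3 comparisons with control (columns), with 3 libraries per group. A star marks a limma call, grey a host not listed, and the tetracycline column runs from -2.41 for MIR17HG to 2.41 for MIR22HG while P493-6 with MYCi975 holds 1 star.

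Other named lists were described in the same way, by counts and medians. Their counts stand beside 36.2% of all genes that rose and 41.9% that fell with tetracycline, 10.6% and 18.0% with MYCi975 in P493-6, and 29.0% and 30.1% in PC3. Of 7 MYC-linked RNAs, 3 rose and 4 fell with tetracycline (median -0.93 against -0.05 over all genes): DANCR, MIR17HG, MINCR (-1.25) and DDX11-AS1 (-0.93) fell, and MIR22HG, DLEU2 and PVT1 (0.38) rose. PVT1 is the transcribed neighbour of the native MYC gene. With MYCi975 in P493-6 only DANCR of these 7 was called. In PC3, 3 of 7 rose and 1 fell (median 0.05). One of these rises, PVT1 (0.19), was lost without the first or the third control (adjusted p = 0.122 and 0.0529) or the second treated library (0.276) and under DESeq2 (0.0801), and MINCR (0.48) without the second control (0.0689).

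Among RNAs linked to p53, 6 of 9 rose and 2 fell with tetracycline (median 0.53 against -0.05), 2 of 8 rose and 1 fell with MYCi975 in P493-6 (median -0.02 against -0.04), and 4 of 7 rose in PC3 with the other 3 not called (median 0.22 against -0.00). LINC-PINT rose in all 3. LINC00467 rose by 1.52 and TP53TG1 by 0.61 with tetracycline. PC3 is known to lack functional p53. Of the nuclear-retained RNAs, 7 of 10 rose and 1 fell with tetracycline (median 0.32), 2 of 10 rose and 1 fell with MYCi975 in P493-6 (median 0.01), and 6 of 7 rose in PC3, all but JPX (median 0.20). OIP5-AS1, a cytoplasmic and nuclear decoy RNA, was the tetracycline fall (-0.52, from 183 ± 5.19 to 127 ± 3.22 CPM). KCNQ1OT1, an imprinted antisense RNA, rose by 0.42 with tetracycline and by 0.30 in PC3. The PC3 call was lost without the third control (adjusted p = 0.118) or the third treated library (0.0766).

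Lists tied to blood cells moved with tetracycline. All 8 B cell-linked RNAs listed in that table rose (median 1.56 against -0.05), among them LINC00877 (2.03), LINC02397 (1.93) and PCED1B-AS1 (1.79). ITGB2-AS1 is among the 8 and reached 2 CPM only with tetracycline, so the rule itself set its rise. The 7 listed with MYCi975 had log2 changes of -0.07 to 0.28 and were not called. LINC02397 was at 23.1, 22.4 and 21.4 CPM in controls, 20.01, 22.01 and 21.8 CPM with MYCi975 and 86.3, 84.8 and 91.8 CPM with tetracycline. The first 2 of these groups overlapped and the third lay above them. The summed level of the 7 B cell markers was 1730 to 1790 CPM in controls, 1890 to 1940 CPM with MYCi975 and 5120 to 5160 CPM with tetracycline. That of 9 markers of other cell types was at most 19.6 CPM in controls, and then 18.7 to 20.6 CPM with MYCi975 and 89.9 to 98.5 CPM with tetracycline, of which LYZ made up 58.6 CPM with tetracycline, and CD3D, CD14, COL1A2, VWF and ALB were not listed in P493-6. The part of these markers in the result was not tested. In bulk RNA, fewer cells of a type and less RNA per cell cannot be told apart.

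Of 10 immune and interferon-linked RNAs, 6 rose and 2 fell with tetracycline (median 1.13), where HCP5 (2.79) led and HCG18 fell by 0.67, while HCG18 rose by 0.50 in PC3. Of these rises, USP30-AS1 was listed only in the tetracycline comparison, so the rule favoured its rise. With MYCi975, 1 of 9 rose in P493-6 (HCP5, median 0.08) and 2 of 3 in PC3 (median 0.28). ITGB2-AS1 went from 0.157 ± 0.154 to 2.53 ± 0.59 CPM with tetracycline and the leukocyte integrin gene ITGB2 opposite it from 15.2 to 105 CPM. In the list of stability and housekeeping RNAs, 5 of 12 rose and 4 fell with tetracycline (median 0.13), near the shares of all genes, 2 rose and 2 fell of 12 with MYCi975 in P493-6 (median 0.03), and 5 of 12 rose in PC3 (median 0.12). EPB41L4A-AS1 rose by 0.43 in PC3 and fell by 0.77 with tetracycline. RMRP and RPPH1 rose by 0.33 and 0.36 with tetracycline and were not called with MYCi975 in either line.

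The remaining lists were short. Of 5 hypoxia-linked RNAs in PC3, 3 rose (HIF1A-AS3, NEAT1 and WT1-AS at 0.45, median 0.45), and the WT1-AS call was lost without the second or the third treated library (adjusted p = 0.0867 and 0.0785) and under DESeq2 (0.0578). Of the 2 listed in P493-6, NEAT1 rose with tetracycline and CYTOR (0.23) was not called. Imprinted and dosage RNAs had 1 rise of 4 in PC3, and 2 rises and 1 fall of 5 with tetracycline, where GNAS-AS1 fell by 1.01 and FTX rose by 1.01. FOXD2-AS1, the single HOX and developmental member listed in P493-6, fell by 1.15 with tetracycline and was not called with MYCi975. Of the prostate and epithelial list, PCAT7 rose by 0.35 in PC3, a call lost without any of the first 2 treated libraries or the first or the third control (adjusted p = 0.18, 0.0513, 0.122 and 0.0997) or under DESeq2 (0.1), and PTOV1-AS2 fell by 0.73 with MYCi975 and rose by 0.54 with tetracycline in P493-6. Without the first control the PTOV1-AS2 fall had an adjusted p of 0.0601, and without the third control or the second tetracycline library its rise had 0.0641 and 0.0585.

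RefSeq promoters (GRCh38.p14, 250 bases before to 50 after the start) were found for 484 members. The canonical E-box CACGTG, which reads the same on both strands, was in 7.4% of all 27305 promoters of this length and in 10.5% of those of members. With tetracycline it was in 18 of 118 promoters of members that fell (15.3%), 19 of 183 that rose (10.4%) and 8 of 107 not called (7.5%). Among members changed at least 2-fold with tetracycline it was in 4 of 44 that fell (9.1%) and 5 of 72 that rose (6.9%), near the share of all promoters. In PC3 it was in 1 of 50 that fell (2.0%), 16 of 96 that rose (16.7%) and 22 of 211 not called (10.4%). With MYCi975 in P493-6 it was in 5 of 38 that fell (13.2%), 6 of 19 that rose (31.6%) and 31 of 321 not called (9.7%). The sets are small and were not tested. The letters were in the promoters of NORAD, TUG1, FIRRE, LINC-PINT, DLEU2 and LINC00426 as well as TAF12-DT and INSIG1-DT.

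TAF12-DT and INSIG1-DT fell with both P493-6 treatments and hold the motif, while MIR17HG, DANCR and VPS9D1-AS1, among the steepest falls with tetracycline, do not hold it in this window. INSIG1-DT, picked after its values were seen, starts 235 bases from the sterol regulator INSIG1. It was at 6.47 ± 1.18 CPM in controls, 3.52 ± 0.73 CPM with MYCi975 and 2.83 ± 0.53 CPM with tetracycline, and INSIG1 went from 90.0 to 74.0 and 47.4 CPM. The promoters are printed 5′ to 3′ on the strand of the transcript, with CACGTG in capitals where present, to set these cases side by side. They lie at chr1:28643006-28643305 (plus strand), chr7:155297609-155297908 (minus), chr13:91347437-91347736 (plus), chr4:52712144-52712443 (plus) and chr16:89711606-89711905 (plus), in the order given:
TAF12-DT: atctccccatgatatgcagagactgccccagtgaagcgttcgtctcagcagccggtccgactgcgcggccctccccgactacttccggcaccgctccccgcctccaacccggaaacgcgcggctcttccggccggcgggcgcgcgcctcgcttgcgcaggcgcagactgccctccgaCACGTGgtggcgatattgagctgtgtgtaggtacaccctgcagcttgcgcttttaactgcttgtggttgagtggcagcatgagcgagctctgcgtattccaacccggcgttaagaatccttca
INSIG1-DT: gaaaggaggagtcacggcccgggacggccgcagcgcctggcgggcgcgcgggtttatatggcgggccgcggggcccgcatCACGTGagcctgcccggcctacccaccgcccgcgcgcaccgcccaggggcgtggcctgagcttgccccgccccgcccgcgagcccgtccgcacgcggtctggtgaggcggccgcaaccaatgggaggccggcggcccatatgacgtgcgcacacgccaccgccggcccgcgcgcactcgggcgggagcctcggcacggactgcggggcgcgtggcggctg
MIR17HG: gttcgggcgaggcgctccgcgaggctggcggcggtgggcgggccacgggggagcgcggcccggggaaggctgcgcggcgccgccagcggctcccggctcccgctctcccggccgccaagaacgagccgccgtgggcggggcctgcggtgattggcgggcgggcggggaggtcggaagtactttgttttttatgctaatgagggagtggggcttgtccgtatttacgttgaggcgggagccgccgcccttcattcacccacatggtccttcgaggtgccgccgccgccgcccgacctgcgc
DANCR: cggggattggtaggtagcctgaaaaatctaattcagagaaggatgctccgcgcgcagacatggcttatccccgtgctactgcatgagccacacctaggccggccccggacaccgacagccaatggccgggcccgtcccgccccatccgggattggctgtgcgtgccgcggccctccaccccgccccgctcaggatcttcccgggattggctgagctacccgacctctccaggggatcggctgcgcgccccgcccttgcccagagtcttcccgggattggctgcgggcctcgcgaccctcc
VPS9D1-AS1: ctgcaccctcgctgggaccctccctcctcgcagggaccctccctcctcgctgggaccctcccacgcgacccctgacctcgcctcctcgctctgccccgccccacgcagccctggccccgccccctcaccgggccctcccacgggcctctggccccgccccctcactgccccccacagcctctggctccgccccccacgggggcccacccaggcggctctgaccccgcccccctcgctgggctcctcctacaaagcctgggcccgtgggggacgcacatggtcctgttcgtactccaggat
In TAF12-DT the motif starts 73 bases before the RefSeq start, and in INSIG1-DT 170 bases before it. A match is a description of letters, and its absence from this window says nothing of the factor.

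Many members sit beside a coding gene: 315 start within 1000 bases head to head with one, 306 overlap one on the other strand and 111 on the same strand, and 374 have none of these neighbours listed. Across head to head pairs, the Pearson correlation of the log2 changes of member and neighbour was 0.43 with tetracycline (275 pairs), 0.30 in PC3 (237 pairs) and 0.09 with MYCi975 in P493-6 (258 pairs). Where both were called with tetracycline, 112 head to head pairs went the same way and 44 opposite ways. For pairs overlapping on opposite strands the correlations were 0.32, 0.31 and 0.30. For pairs overlapping on the same strand they were 0.48 (105 pairs), 0.30 (75 pairs) and -0.06 (95 pairs). With tetracycline, 53 same-strand pairs with both called went the same way and 9 opposite ways. Pairs of genes that are not neighbours were not compared. The points share libraries, and the values are descriptions across genes.

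Some antisense entries over highly expressed genes stayed at a similar percentage of them across groups. Among pairs on opposite strands whose coding gene averaged at least 400 CPM, 15 were listed in all 5 groups. In 8 of these the entry kept to within 1.5 times the same percentage of its coding gene in all groups, at 0.151% to 1.88%. CTC-425F1.4 was at 0.615% to 0.692% of CALR, RP11-138I1.4 at 0.504% to 0.581% of UBB and RP11-290D2.6 at 1.23% to 1.44% of TPT1, 3 entries singled out after their values were seen. TUBA1B-AS1 was at 0.415% to 0.492% of TUBA1B, the alpha tubulin gene. It fell in PC3 (-0.77), with MYCi975 in P493-6 (-0.38) and with tetracycline (-0.66), next to -0.93, -0.28 and -0.67 for TUBA1B. At the other end, PXN-AS1 ranged from 0.548% to 7.44% of PXN. The library kit keeps strand, but whether counting used it is not given in the sources used here, and the part of reads from the coding strand in these entries was not tested.

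**Figure D5:**
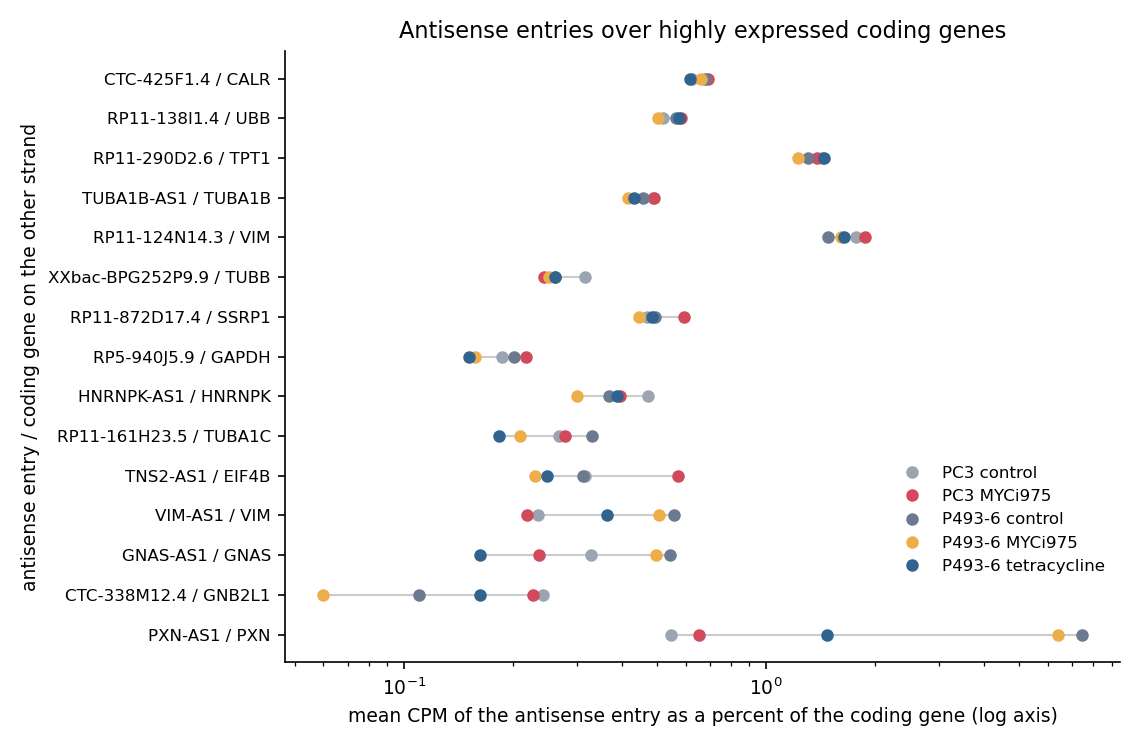
For 15 antisense entries over coding genes of at least 400 CPM, points give the group mean CPM of the entry as a percent of that of the coding gene (log axis), 1 colour per group, sorted by the ratio of highest to lowest. The upper 8 rows stay within 1.5 times, and PXN-AS1 at the bottom spans 0.548% to 7.44%.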

How the data were processed

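RNA was captured on exons from 50 ng of total RNA (TruSeq RNA Access), per the labels' protocols. Reads were processed with STAR, HTSeq and edgeR on hg38, per the submitters' processing notes. Tool versions, annotation and strand use were not given in the sources used here. In 3 tables, the authors deposited CPM (reads scaled to a fixed library total), with log2 fold changes, likelihood-ratio scores, p-values and log2 mean CPM of their own comparisons. The authors' log2 values, scores and p-values were not used.

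Whole reads could be recovered from all deposited CPM values (within 0.001 reads). The tables were checked to hold only genes above 1 CPM in at least 2 of 6 libraries. Intervals and floors cover counting error only. The main test was limma 3.58.1 (R 4.3.3, trend and robust) on log2(CPM + 1), a scale that understates changes of low genes, two-sided, adjusted over all genes of each of 5 comparisons and called below 0.05. It was tested on simulated data: simulated log2 changes of 0.25, 0.5 and 1 were recovered for 44%, 66% and 96% of changed genes in PC3 (13751 genes), 20%, 76% and 90% in P493-6 with MYCi975 (12998 genes) and 34%, 62% and 86% with tetracycline (13703 genes). The simulation changed 50 genes per size, drawn from all genes, while far more were called in the data and many members are low. Its rates thus need not hold for the members, and small changes that were not called may have been missed. Alternatives were edgeR 4.0.16 and DESeq2 1.42.0 on recovered reads, TMM scaling, pseudocounts of 0.1 and 0.5, filters, membership, a replicate block and leaving out each library.

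Named members were the 8 largest rises and falls per comparison of at least 5 CPM with separate groups, up to 4 called members per list (2 by reads where none was called), up to 6 per direction in the direct and between-line comparisons, up to 5 opposite between lines, the 10 highest, and their coding neighbours. Members, lists and this rule were chosen with earlier results of these data known. Sequences are RefSeq's.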

Additional observations from a re-analysis of the deposited data

Results flagged for a closer look

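For 3 of 522 members (0.575%, against 3.01% of all genes) the responses to MYCi975 were called in opposite directions in the lines. The interaction of line and treatment was also called for each (12 libraries, limma, adjusted over 11240 genes). It tests a difference between the responses and not their directions. For ATP2B1-AS1 the log2 change was 1.09 ± 0.25 higher in PC3 than in P493-6 (adjusted p = 0.000531). It was higher with MYCi975 in 3 of 3 PC3 libraries and lower in 3 of 3 P493-6 libraries. For GAS6-AS1 the difference was 0.69 ± 0.17 (adjusted p = 0.00177). Its P493-6 controls were at 21.4, 15.2 and 14.2 CPM and its treated libraries at 11.3, 11.8 and 13.4 CPM, while its PC3 groups, 7.91 to 9.49 and 9.36 to 12.04 CPM, overlapped. For TUG1 the difference was 0.37 ± 0.08 (adjusted p = 0.00026), between 56.9 ± 3.33 and 65.4 ± 2.02 CPM in PC3 and 90.7 ± 7.34 and 80.1 ± 2.54 CPM in P493-6. As given above, the P493-6 call of TUG1 was lost with TMM scaling, edgeR and DESeq2, and without the first control or the second treated library. The dose also differed between the lines.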

How the results depend on the processing

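No named result changed sign with a call in either fit. Of 126 named results, 108 kept their call in every alternative run that gave an adjusted p. A change of sign without a call in either fit was not counted. Of 1825 values 49 lost and 8 gained a call, 43 of these by leaving out a library. DESeq2 gave 24 rises and 29 falls with MYCi975 in P493-6 (39 and 69 by limma) and 63 falls in PC3 (95 by limma); the cause was not tested. Membership by the mean over all libraries has fewer members by construction and left 191 rises with tetracycline and 192 members lower in the direct comparison. Leaving out each library gave 43 to 67 falls and 26 to 39 rises with MYCi975 in P493-6, the lowest without the first and the second control respectively, 148 to 160 rises and 76 to 88 falls in PC3, 353 to 364 rises and 202 to 222 falls with tetracycline, 171 to 183 higher and 286 to 312 lower in the direct comparison, and 64 to 80 higher and 16 to 21 lower in PC3 between lines. Replicate numbers did not pair the libraries (correlations of deviations -0.114 to 0.057). With the replicate block 35 rose and 62 fell with MYCi975 in P493-6, 177 and 95 in PC3, 371 and 222 with tetracycline, 181 and 310 were higher and lower in the direct comparison, and 73 and 19 between lines. At 2 CPM a library holds 16.3 to 31.9 reads, which limits precision for the 551 members below 5 CPM.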
